A study of Homo sapiens with 9 samples.

Results

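The genes described here are 35 genes for the basement membrane and for collagen assembly, out of 36601 genes counted in hEEs. They were taken by symbol from a list of known components: the 6 collagen IV chains, 10 laminin chains, both nidogens, 4 basement membrane proteoglycans and multiplexin collagens, 5 matricellular and associated proteins, 3 proteins of the Fraser complex and its surroundings, 2 extracellular cross-linking enzymes and 3 enzymes or chaperones that act on collagen inside the cell. All 35 symbols had a row in the files of both libraries. The rule that lists them uses no measured value, but the genes were chosen with earlier results of these data known.

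A basement membrane is a thin sheet of extracellular matrix under an epithelium. Laminin trimers, each of an α, a β and a γ chain, polymerize on the cell surface, collagen IV trimers form a covalently cross-linked network, and nidogens and heparan sulfate proteoglycans tie the networks together. In the mammalian embryo, the primitive endoderm (hypoblast) secretes the basement membrane on which the epiblast becomes polarized, and its parietal derivative lays down a thick one, Reichert's membrane, in rodents. Collagen chains are hydroxylated on proline and lysine and folded with dedicated chaperones in the endoplasmic reticulum before they are secreted.

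hEEs are aggregates of human pluripotent stem cells that form an inner embryonic and an outer hypoblast-like compartment without transgenes or added lineage inducers. They were grown from wild-type ESI017, an established human embryonic stem cell line that was kept on inactivated mouse fibroblasts and depleted of them before seeding, and no treatment distinguished the groups. Aggregates with an inner and an outer compartment were picked by eye on day 4 (D4) and day 6 (D6), dissociated, and profiled one cell at a time by droplet sequencing of RNA from its 3′ end. The wells of a day were pooled into 1 library, so there are 2 groups of 1 library each, no replicate, and no test. Intervals in this text are 95% intervals and cover counting error only. The outer layer took longer to dissociate than the inner cells, so the share of each compartment among the cells was not compared.

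The D4 library held 151712246 UMIs in 10943 cells and the D6 library 150320228 UMIs in 11483 cells, where a UMI is a molecular tag that counts each captured transcript once. Cells were kept within the study's limits on UMIs per cell, where the lowest kept cell of D4 had 3439 and the highest of D6 27461, and with at most 10% mitochondrial UMIs. The compartments were separated by counts of 3 genes. A cell entered the embryonic gate with at least 5 UMIs of *POU5F1*, at least 1 of *SOX2* and at most 2 of *FN1*, and the hypoblast gate with at least 3 of *FN1*, none of *SOX2* and at most 5 of *POU5F1*. *FN1* encodes fibronectin, a matrix protein itself, so gates with *APOA1* in its place were tried as well. At D4, the embryonic gate held 3716 cells with a median of 15158 UMIs and the hypoblast gate 4061 cells with 11012. The D6 gates held 5054 cells with a median of 14226 and 3567 cells with 10902. A level is the UMIs of a gene summed over a gate's cells, per 1000000 UMIs of those cells (CPM). It is not scaled to transcript length, since 1 tag is read per molecule, but capture can differ between genes, so levels are compared between gates and days, and between genes only as a ratio set beside the same ratio in the other gate. For the 15 genes at 50 CPM or more in some gate, the counting interval reached at most 7.68% from the level.

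The 9 hypoblast and 5 epiblast markers, which the gates did not use, followed the gates' names, except 1 at D4. On that day, 8 of the 9 hypoblast markers were at least 2-fold higher in the hypoblast gate. The other, *PDGFRA*, had a log2 ratio of 0.51. At D6 all 9 were higher, and all 5 epiblast markers were at least 2-fold lower on both days. Of a wider list of 12 epiblast-restricted genes not used in the gates, 10 were at least 2-fold lower on each day. The other 2, *VRTN* and *LIN28B*, were within 2-fold. Of all tested genes, 15.1% at D4 and 20.7% at D6 were lower. The 9 hypoblast markers summed to 8082 CPM in the hypoblast gate and 1009 in the embryonic gate at D4, and to 22618 and 1232 at D6. Of the D4 sums, *APOE* made up 5559 and 959. The 5 epiblast markers summed to 389 and 2065 at D4 and to 396 and 2180.0 at D6. The 4 streak and mesoderm markers stood at 33.3 in the D4 and 104 in the D6 hypoblast gate, against 3.55 and 6.94 in the embryonic gates. The 4 amnion markers summed to 9.31 and 26.7 CPM in the embryonic and hypoblast gates at D4 and to 22.0 and 7.04 at D6; most of the hypoblast sums was *ISL1*, at 25.6 and 6.10 CPM, and *TFAP2A* was lower in the hypoblast gate on both days. The 7 fibroblast markers summed to 252 and 171 CPM in the D4 and D6 embryonic gates and to 52.4 and 19.6 in the hypoblast gates. *THY1*, which human pluripotent cells also carry, made up 208 and 127 of the embryonic sums. The fibroblast proteoglycan gene *DCN* had 0 to 4 UMIs in any gate. Of the 5 that reached 20 UMIs on a day, 2 at D4 and 4 at D6 were at least 2-fold lower in the hypoblast gate. *COL3A1* was higher there at D4, with a log2 ratio of 4.13, and *LUM* at D6, with 6.99. A total of 40 barcodes occurred in both libraries, and every call given below was the same without those cells. Of a list of 14 secreted proteins of the hypoblast and its derivatives, 12 reached 20 UMIs at D4 and 13 at D6, and 10 and 11 of them were at least 2-fold higher in the hypoblast gate, with medians of 5.08 and 5.46 on the log2 scale and ranges of −3.53 to 6.39 and 0.22 to 8.0. The lowest of these ratios at D4 was that of *AFP*, at 0.397 CPM in the hypoblast and 4.60 in the embryonic gate. The part of free RNA and of mixed cells in the embryonic levels was not tested.

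Summed over the 35 genes, the hypoblast gate held several times the level of the embryonic gate on both days. At D4, the sum was 933 CPM (925 to 941) in the embryonic gate and 2649 (2635 to 2664) in the hypoblast gate. At D6 it was 850.2 (844 to 857) and 3069 (3052 to 3086). The hypoblast gate was thus 2.84-fold higher at D4 and 3.61-fold higher at D6, with log2 ratios of 1.51 (1.49 to 1.52) and 1.85 (1.84 to 1.87). *COL4A1* carried the largest single share of this gap, and without it the log2 ratios were 1.29 and 1.60. Counted as UMIs per cell, with no scaling, the sums were 14.5 and 31.2 at D4 and 12.6 and 35.9 at D6. Of all UMIs of these genes in kept cells, the hypoblast gate held 59.4% at D4 and 56.5% at D6, while it held 38.5% and 30.5% of the UMIs of all genes.

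The difference was also present cell by cell. With each cell thinned to one and the same depth, the lower limit of the filter, an embryonic cell had a median of 3 UMIs of the 35 genes on either day, and a hypoblast cell 9 at D4 and 10 at D6. At D4, 62.7% of hypoblast cells (61.2 to 64.2, exact binomial) lay above the 95th percentile of embryonic cells, and at D6 80.5% (79.2 to 81.8) did. That percentile was 7 UMIs at D4 and 6 at D6. The cut thus differed, and the shares are not compared between the days. The distributions overlapped, since 39.3% of embryonic cells at D4 and 34.0% at D6 reached the 5th percentile of the hypoblast cells.

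**Figure D1:**
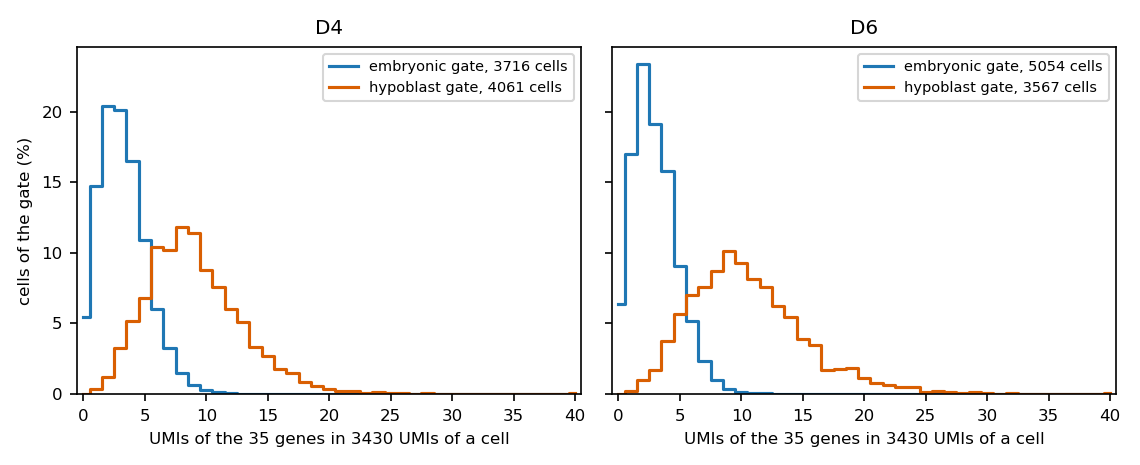
Share of a gate's cells, in percent, against the number of UMIs of the 35 genes in the cell after thinning to the lower limit of the filter, for D4 and D6; the last bin holds cells with 40 or more. The embryonic cells lie around a median of 3 UMIs and the hypoblast cells around 9 (D4) and 10 (D6), with overlapping flanks.

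Not every gene took part. A gene was called higher or lower when its log2 ratio was at least 1 in size and it had at least 20 UMIs over both gates. At D4, 32 of the 35 genes reached that number, and 15 of them (46.9%) were higher in the hypoblast gate, while 14.1% of all 18248 genes so tested were. Another 4 (12.5%) were lower, against 15.1% of all genes. At D6, 17 of 34 genes (50%) were higher, against 14.1% of 18846 genes, and 7 (20.6%) were lower, against 20.7%. The share of the 35 genes that was higher was therefore over 3 times the background on both days, and the share that was lower was at or under it. Because the genes were chosen with earlier results of these data known, these shares describe the list and are no independent test. Their median log2 ratio was 0.92 at D4 and 0.99 at D6, beside medians of −0.05 and −0.16 over all tested genes. Set against the D6 median of all genes, 18 were higher and 6 lower at D6. Without scaling, in UMIs per cell, 12 were higher and 5 lower at D4, and 12 and 9 at D6.

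A total of 13 genes were higher in the hypoblast gate on both days, namely *COL4A1*, *COL4A2*, *COL4A3*, *COL4A5*, *COL4A6*, *LAMA1*, *LAMB1*, *HSPG2*, *AGRN*, *COL18A1*, *PAPLN*, *FREM2* and *NPNT*. Lower on both days were 4 genes, *LAMA4*, *NID2*, *SMOC1* and *TINAGL1*, and 7 were within 2-fold on both. *COL15A1* had too few UMIs on either day, and 10 genes had a different call on the 2 days.

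**Figure D2:**
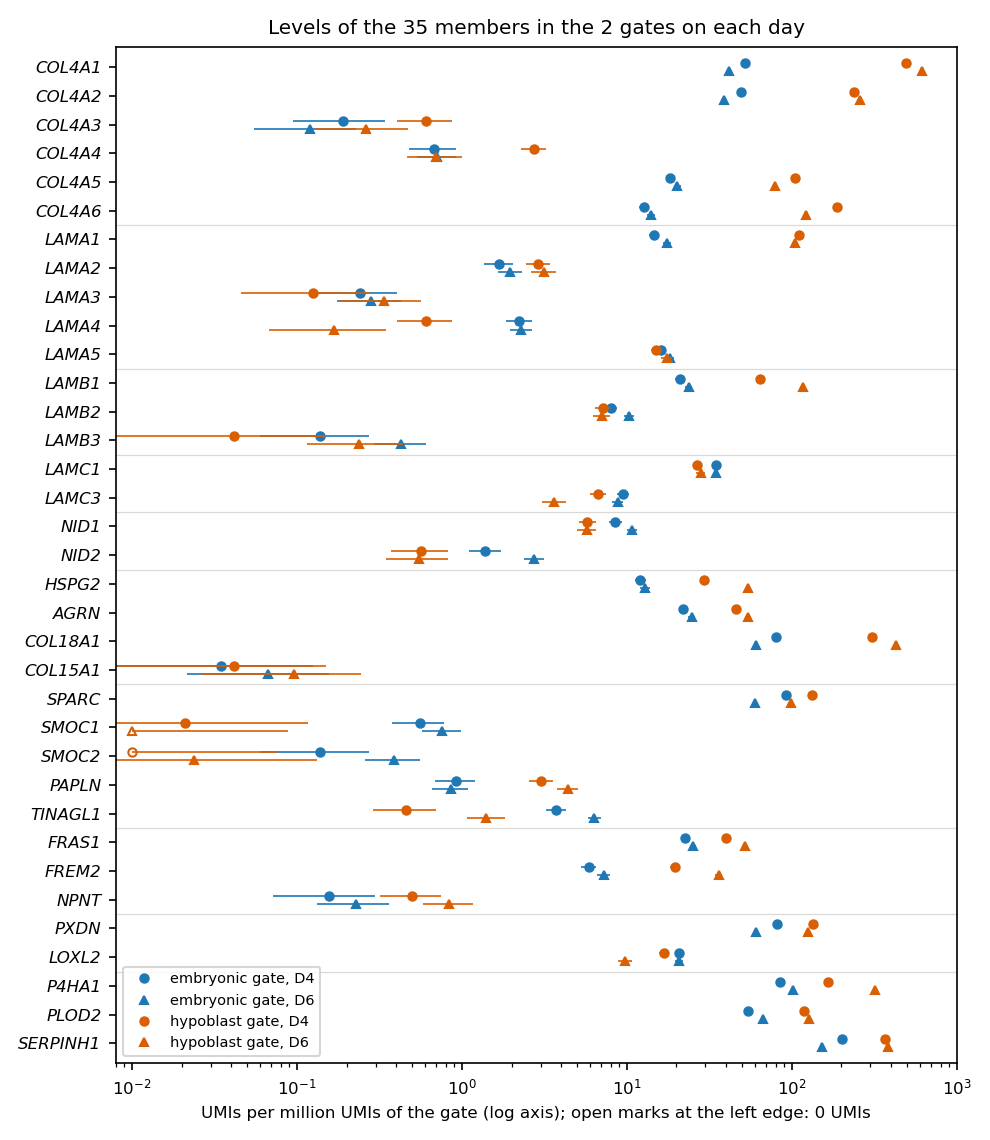
Level of each of the 35 genes in CPM (log axis) in the embryonic and hypoblast gates at D4 (dots) and D6 (triangles), grouped by role; bars are 95% counting intervals and open marks are gates with 0 UMIs. *COL4A1* reaches 619.5 in the D6 hypoblast gate, while *LAMC1* stays between 26.6 and 34.9 in all 4 gates.

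**Figure D3:**
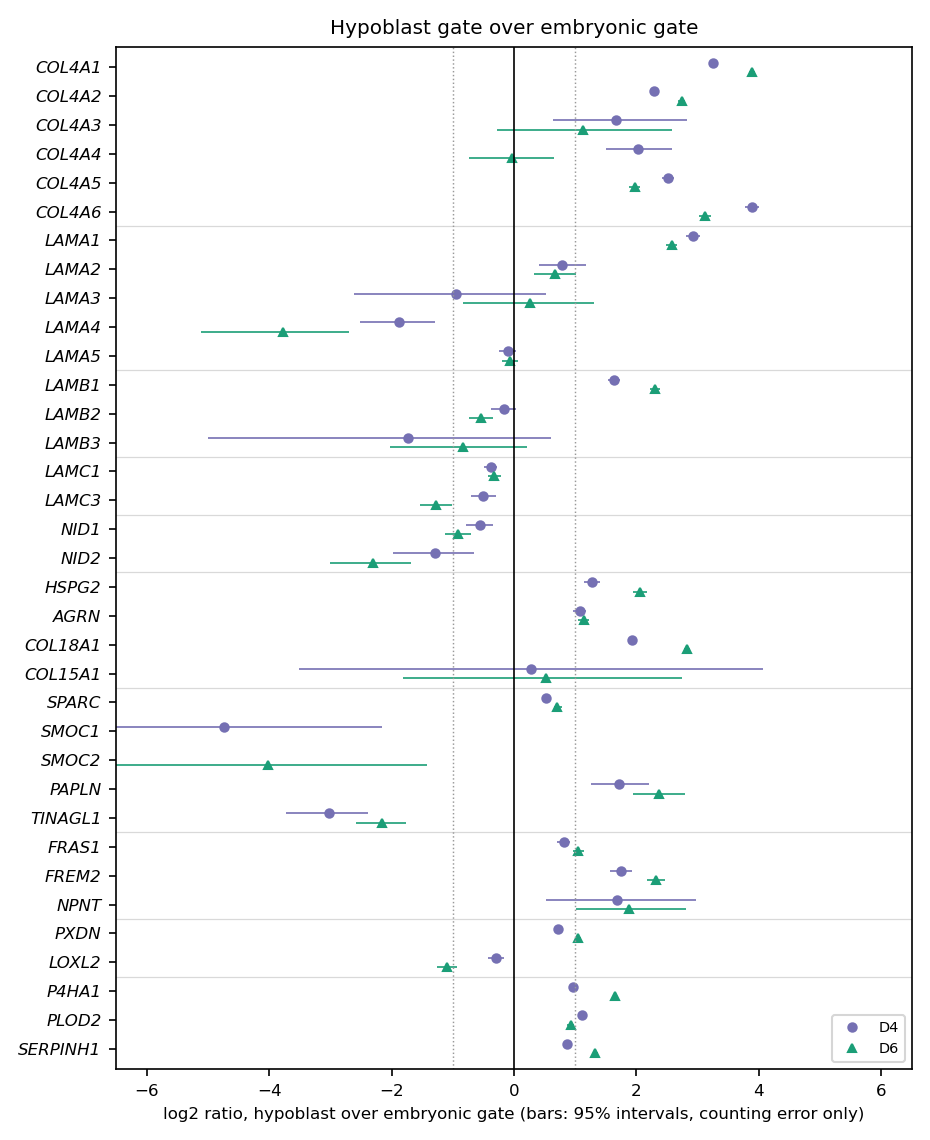
Log2 ratio of the hypoblast over the embryonic gate for each gene at D4 (dots) and D6 (triangles), with 95% counting intervals clipped at the axis limits and dotted lines at −1 and 1; ratios against a gate with 0 UMIs (*SMOC1* at D6, *SMOC2* at D4) are not drawn. The collagen IV chains lie to the right of 1, except *COL4A4* at D6, and the γ chains and nidogens left of 0.

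The collagen IV chains were the role with the widest gap. Together they held 133 CPM in the D4 embryonic gate, 1031 in the D4 hypoblast gate, 116 in the D6 embryonic gate and 1082 in the D6 hypoblast gate, or 14.3%, 38.9%, 13.6% and 35.3% of all UMIs of the 35 genes in these gates. The sum was 7.74-fold higher in the hypoblast gate at D4 and 9.34-fold higher at D6. All 6 chain genes were called higher at D4 and 5 at D6.

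*COL4A1* encodes the α1 chain, which pairs with α2 in the collagen IV found in nearly every basement membrane. Its level was 52.2 CPM in the embryonic and 496 in the hypoblast gate at D4, and 41.8 and 619.5 at D6. It ranked 271st by level among 25058 genes detected in the D4 hypoblast gate and 224th of 24548 at D6. Its log2 ratio between the gates was 3.25 (3.19 to 3.30) at D4 and 3.89 (3.84 to 3.94) at D6, a 9.50-fold and a 14.8-fold difference. In cells thinned to the lower limit of the filter, 76.0% of hypoblast cells at D4 and 81.7% at D6 had a *COL4A1* UMI, beside 15.4% and 12.0% of embryonic cells; the unthinned shares were 96.4%, 97.5%, 52.0% and 43.0%. For *APOA1*, a lipoprotein gene that embryonic cells should lack, the thinned shares were 87.0% and 98.7% of hypoblast and 5.36% and 21.1% of embryonic cells. In the D6 hypoblast gate, *APOA1* stood at 11926 CPM. At D6 more embryonic cells had an *APOA1* UMI than a *COL4A1* UMI, so no expression is read from the *COL4A1* share on that day. By level, the embryonic gate held 6.74% of the hypoblast level of *COL4A1* and 0.752% of that of *APOA1* at D6. At D4 these values were 10.5% and 1.28%. The part of free RNA in them was not tested.

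*COL4A2*, the α2 chain gene, stood at 49.1 and 239 CPM at D4 and at 38.9 and 261 at D6. The gap was less wide than for *COL4A1*, with log2 ratios of 2.28 (2.22 to 2.34) and 2.74 (2.68 to 2.80). The embryonic cells counted 1.06 (1.01 to 1.12) *COL4A1* molecules per *COL4A2* molecule at D4 and 1.07 (1.02 to 1.13) at D6. The hypoblast cells counted 2.08 (2.03 to 2.12) *COL4A1* molecules per *COL4A2* molecule at D4 and 2.38 (2.32 to 2.43) at D6. The collagen IV molecule itself holds α1 and α2 chains in fixed proportion, with α1 as the more numerous chain.

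*COL4A5* and *COL4A6* encode the α5 and α6 chains, which assemble together and are known from the basement membranes of some epithelia and of smooth muscle. *COL4A5* was at 18.4 and 105 CPM at D4 and at 20.2 and 79.0 at D6, with log2 ratios of 2.51 (2.41 to 2.61) and 1.97 (1.88 to 2.05). *COL4A6* was at 12.7 and 188 at D4 and at 14.0 and 122 at D6, with log2 ratios of 3.89 (3.78 to 4.00) and 3.12 (3.02 to 3.21). At D4 the *COL4A6* gap was thus 14.8-fold, wider than that of *COL4A1*. As with the first pair, the balance of the chains differed between the gates, with 0.688 (0.625 to 0.757) *COL4A6* molecules per *COL4A5* molecule in the D4 embryonic gate and 1.79 (1.73 to 1.85) in the hypoblast gate, and 0.695 (0.641 to 0.752) and 1.54 (1.47 to 1.61) at D6.

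*COL4A3* and *COL4A4*, the α3 and α4 chains of the mature glomerular basement membrane, were scarce. *COL4A3* had 29 UMIs in the D4 and 11 in the D6 hypoblast gate, and 11 and 9 in the embryonic gates. Its log2 ratios were 1.67 (0.63 to 2.82) and 1.13 (−0.28 to 2.58), so the D6 call rests on an interval that includes 0, and it was lost at 0.97 with an upper limit of 20000 UMIs and at 0.79 in UMIs per cell. *COL4A4* had a level of 2.74 CPM (2.29 to 3.25) in the D4 hypoblast gate, 0.675 in the D4 embryonic gate, and 0.708 and 0.694 in the embryonic and hypoblast gates at D6. It was therefore 4.06-fold higher in the hypoblast gate at D4, and at D6 its log2 ratio was −0.03 (−0.73 to 0.65).

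The 6 chain genes lie in 3 head-to-head pairs, each transcribed in opposite directions with a short stretch between the 2 genes. In RefSeq on GRCh38.p14, *COL4A1* covers chr13:110148963-110307157 on the minus strand and *COL4A2* chr13:110307284-110513209 on the plus strand, with 126 bases between them. *COL4A4* (chr2:226967360-227164488, minus) and *COL4A3* (chr2:227164624-227314792, plus) are 135 bases apart, and *COL4A6* (chrX:108155614-108439458, minus) and *COL4A5* (chrX:108439838-108697545, plus) 379 bases. Stretches from between the genes of the pairs that held most of the UMIs are shown on the plus strand. In both pairs the balance of the 2 genes differed between the gates, and a part of these stretches in that was not tested. The first is the whole intergenic stretch between *COL4A1* and *COL4A2*, chr13:110307158-110307283. The second is the 250 bases before the start of *COL4A5*, chrX:108439588-108439837, without the rest of the 379 bases on the *COL4A6* side. Capitals mark CCAAT or its reverse complement ATTGG, and GGGCGG or its reverse complement CCGCCC, searched on both strands together with TATAAA.
COL4A1-COL4A2: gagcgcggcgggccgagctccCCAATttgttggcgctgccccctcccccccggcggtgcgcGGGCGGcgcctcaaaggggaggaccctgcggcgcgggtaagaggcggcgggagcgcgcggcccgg
COL4A6-COL4A5: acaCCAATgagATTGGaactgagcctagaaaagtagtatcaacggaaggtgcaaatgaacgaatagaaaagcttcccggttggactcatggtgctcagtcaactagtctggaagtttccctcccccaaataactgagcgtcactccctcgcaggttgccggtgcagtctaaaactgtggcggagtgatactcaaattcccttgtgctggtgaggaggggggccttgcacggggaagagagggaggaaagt
The stretch between *COL4A1* and *COL4A2* was 80.2% G and C and held 1 CCAAT (read as CCAAT on the plus strand, bases 22 to 26) and 1 GGGCGG (bases 62 to 67). The one before *COL4A5* was 51.2% G and C and held CCAAT (bases 4 to 8) and ATTGG (bases 12 to 16) close together. None of these matches overlapped another, and neither stretch held TATAAA. In windows from 250 bases before to 50 after a transcript start, CCAAT was present in 15 of 38 windows of the genes described here (39.5%) and in 34.6% of all 35116 windows. GGGCGG was present in 28 of 38 (73.7%) and in 45.0%, and TATAAA in 3 of 38 (7.89%) and in 11.5%. A window was given for 31 of the 35 genes. These letters describe the stretches and are no evidence of binding.

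**Figure D4:**
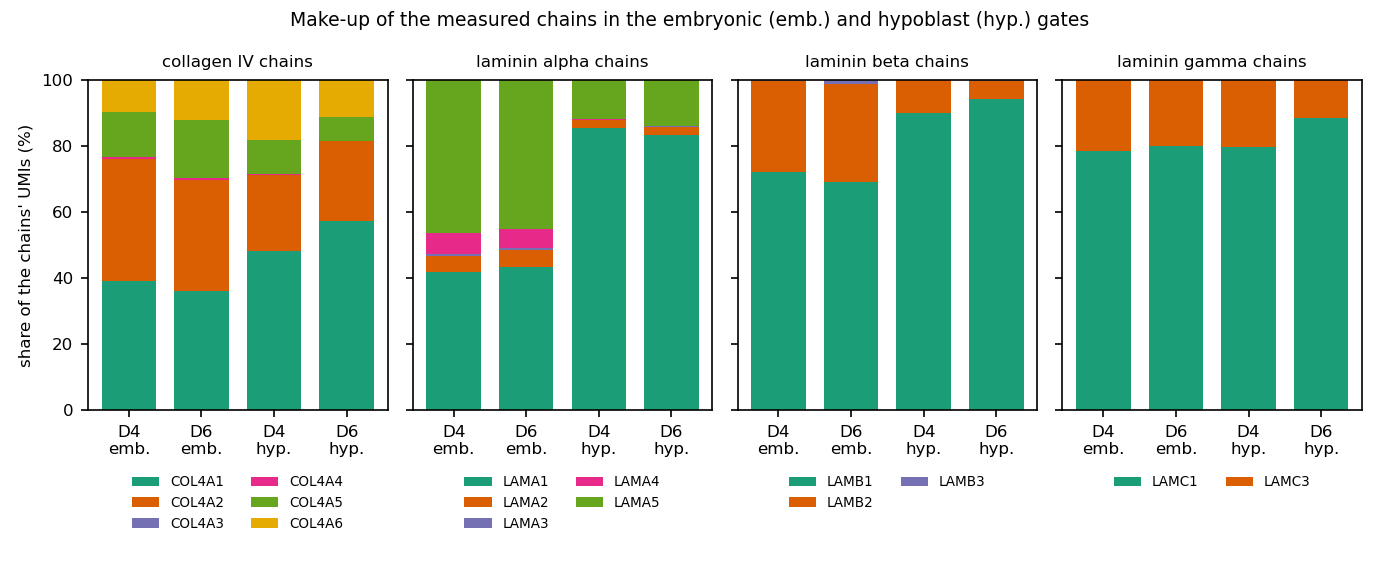
Share of each chain, in percent, among the UMIs of the collagen IV, laminin α, laminin β and laminin γ chains in the 4 gates. *COL4A1* takes 39.2% and 36.1% of collagen IV UMIs in the embryonic gates and 48.1% and 57.3% in the hypoblast gates at D4 and D6; *LAMA1* takes 41.8% and 43.5% of α chain UMIs in the embryonic gates and 85.5% and 83.2% in the hypoblast gates.

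Of the 10 laminin chain genes, only *LAMA1* and *LAMB1* were called higher in the hypoblast gate on either day. *LAMA1* encodes the α1 chain of laminin-111, the laminin of the early embryo. It stood at 14.6 and 111 CPM in the embryonic and hypoblast gates at D4 and at 17.5 and 105 at D6, with log2 ratios of 2.92 (2.81 to 3.03) and 2.58 (2.49 to 2.67). *LAMB1*, the β1 chain gene, stood at 20.9 and 64.6 at D4 and at 23.8 and 117 at D6, with log2 ratios of 1.63 (1.53 to 1.73) and 2.30 (2.22 to 2.38). *LAMC1*, whose γ1 chain is part of most laminins, was not higher with them. Its levels were 34.7 and 26.6 at D4 and 34.9 and 28.0 at D6, log2 ratios of −0.38 (−0.49 to −0.28) and −0.32 (−0.42 to −0.22). All 3 genes of laminin-111 were hence well counted in each compartment, but in different proportions.

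Per *LAMC1* molecule, the embryonic cells counted 0.421 (0.388 to 0.457) *LAMA1* molecules at D4 and 0.501 (0.468 to 0.536) at D6. The hypoblast cells counted 4.16 (3.91 to 4.43) and 3.74 (3.51 to 4.00). The *LAMB1* to *LAMC1* ratio was 0.601 and 0.682 in the embryonic gates and 2.43 and 4.19 in the hypoblast gates. All 4 hypoblast ratios were above all 4 embryonic ratios.

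*LAMA5*, the α5 chain gene of the laminin used to culture human pluripotent cells, was at 16.2 and 15.1 CPM at D4 and at 18.2 and 17.5 at D6, with log2 ratios of −0.10 (−0.24 to 0.04) and −0.06 (−0.19 to 0.07). The hypoblast gates counted 7.30 (6.76 to 7.90) and 6.00 (5.54 to 6.49) *LAMA1* molecules per *LAMA5* molecule. In the embryonic gates the ratio was 0.902 (0.821 to 0.991) at D4 and 0.961 (0.890 to 1.04) at D6. *LAMA4*, the α4 chain of vascular and mesenchymal laminins, was lower in the hypoblast gate, at 2.23 and 0.606 CPM at D4 and 2.29 and 0.168 at D6, with log2 ratios of −1.88 (−2.51 to −1.29) and −3.77 (−5.11 to −2.70). The α2 chain gene *LAMA2* of muscle laminins had levels of 1.68 to 3.14, with log2 ratios of 0.79 and 0.67, and *LAMA3*, the α3 chain of the laminin of skin, did not exceed 0.335 in any gate.

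*LAMB2*, the β2 chain gene, was at 7.99 and 7.13 CPM at D4 and at 10.3 and 7.06 at D6. The β chain balance was therefore further towards β1 in the hypoblast than in the embryonic gates. It was 9.06 (8.10 to 10.2) and 16.6 (14.8 to 18.7) *LAMB1* molecules per *LAMB2* molecule, against 2.61 (2.34 to 2.91) and 2.32 (2.13 to 2.53). *LAMB3*, the β3 chain that joins α3, had 8 and 2 UMIs in the gates at D4 and 32 and 10 at D6. *LAMC3*, the γ3 chain gene, was at 9.48 and 6.71 CPM at D4 and 8.81 and 3.64 at D6, with log2 ratios of −0.50 (−0.70 to −0.30) and −1.28 (−1.54 to −1.02), which put it among the lower genes at D6.

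The nidogens bridge laminin and collagen IV, and neither gene was higher in the hypoblast gate. *NID1* was at 8.51 and 5.77 CPM at D4 and at 10.7 and 5.72 at D6, with log2 ratios of −0.56 (−0.78 to −0.35) and −0.91 (−1.12 to −0.70). *NID2* was lower on both days, at 1.38 and 0.564 and then 2.74 and 0.551, with log2 ratios of −1.29 (−1.98 to −0.65) and −2.31 (−3.0 to −1.69), and its D4 ratio was −0.90 in cells with 10000 to 16000 UMIs. Together with the γ chains, the bridging and common subunits thus stood at 1.33-fold (γ chains) and 1.56-fold (nidogens) lower summed levels in the hypoblast gate at D4, and at 1.38-fold and 2.15-fold lower at D6, while the collagen IV, α chain and β chain sums were higher.

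The proteoglycan genes and *COL18A1* were higher in the hypoblast gate on both days. *COL18A1*, whose collagen XVIII carries heparan sulfate and releases endostatin, was at 80.2 and 305 CPM at D4 and at 60.9 and 431 at D6. Its log2 ratio was 1.93 (1.88 to 1.98) and then 2.82 (2.78 to 2.87), a gap of 7.08-fold at D6. *HSPG2*, the gene of perlecan, the main heparan sulfate proteoglycan of basement membranes, was at 12.1 and 29.5 and then at 12.9 and 54.1, with log2 ratios of 1.28 (1.15 to 1.41) and 2.06 (1.95 to 2.17). *AGRN*, for agrin, which binds laminin and dystroglycan, was at 21.9 and 46.2 and then at 24.7 and 54.4, with log2 ratios of 1.07 (0.97 to 1.18) and 1.14 (1.05 to 1.23). As UMIs per cell, *AGRN* was within 2-fold on both days and *HSPG2* at D4. *COL15A1*, the other multiplexin, had 2 to 5 UMIs in a gate.

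Among the matricellular and associated proteins, genes went in both directions. *SPARC*, a collagen-binding protein that is abundant in the parietal endoderm of rodents, was at 91.9 and 133 CPM at D4 and at 60.2 and 98.7 at D6, within 2-fold, with log2 ratios of 0.53 (0.48 to 0.58) and 0.71 (0.65 to 0.78). *PAPLN*, for papilin, a secreted protein related to the ADAMTS proteases, was higher, at 0.917 and 3.03 and then 0.855 and 4.40, with log2 ratios of 1.72 (1.26 to 2.21) and 2.36 (1.95 to 2.80). The gene of tubulointerstitial nephritis antigen-like 1, *TINAGL1*, was lower, at 3.74 and 0.460 and then 6.33 and 1.41, with log2 ratios of −3.02 (−3.73 to −2.39) and −2.16 (−2.58 to −1.77).

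*SMOC1* and *SMOC2* encode SPARC-related modular calcium-binding proteins and were counted mainly in the embryonic gates. *SMOC1* had 32 UMIs in the embryonic and 1 in the hypoblast gate at D4, a log2 ratio of −4.73 (−10.07 to −2.15). At D6 it had 57 and 0 UMIs, and the upper interval bound of its log2 ratio was −3.06. The embryonic level was 10.6-fold that of 3 counts over the hypoblast gate, a floor put in place of 0. *SMOC2* had 8 and 0 UMIs at D4, too few for a call, with an upper interval bound of −0.50. Its embryonic level was 2.21-fold the same floor. At D6 it had 29 and 1 UMIs, a log2 ratio of −4.02 (−9.37 to −1.42).

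The Fraser complex anchors embryonic epithelia to the underlying matrix through large proteins at the basement membrane. *FREM2* was higher on both days, at 5.87 and 19.5 CPM at D4 and at 7.23 and 36.2 at D6, with log2 ratios of 1.74 (1.56 to 1.92) and 2.32 (2.18 to 2.47). Its partner *FRAS1* lay at the threshold, at 22.7 and 39.8 and then at 25.2 and 52.3, with log2 ratios of 0.81 (0.71 to 0.92) and 1.05 (0.96 to 1.14), and was within 2-fold at D6 under 3 alternatives, at 0.72 to 0.99. *NPNT*, for nephronectin, a ligand of integrin α8β1, was called higher from few counts, with 9 and 24 UMIs at D4 and 17 and 35 at D6. Its D4 log2 ratio of 1.69 (0.53 to 2.98) became 0.97 with 1277 cells that the authors had labelled in place of the 3716 embryonic gate cells. The authors' labels were at hand for only a part of the D4 cells.

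Both extracellular cross-linking enzymes were within 2-fold at D4 and parted at D6. *PXDN* encodes peroxidasin, which forms the sulfilimine bonds of collagen IV, and was at 80.9 and 134 CPM at D4 and at 60.6 and 125 at D6, with log2 ratios of 0.72 (0.67 to 0.78) and 1.04 (0.99 to 1.10). *LOXL2*, a lysyl oxidase that cross-links the 7S domain of collagen IV, was at 20.6 and 16.9 and then at 20.8 and 9.74, with log2 ratios of −0.29 (−0.42 to −0.16) and −1.09 (−1.25 to −0.93). Both D6 calls were near the threshold. Set against the D6 median of all genes, the *LOXL2* ratio was −0.93, and *PXDN* was within 2-fold in UMIs per cell.

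The 3 genes for collagen processing inside the cell had the highest summed level in the embryonic gates, where they made up 36.5% of the UMIs of the 35 genes at D4 and 37.8% at D6. *P4HA1* encodes the catalytic subunit of collagen prolyl 4-hydroxylase. Its level was 84.6 and 166 CPM at D4 and 102 and 319 at D6, with log2 ratios of 0.97 (0.92 to 1.02) and 1.65 (1.61 to 1.69). *PLOD2*, a lysyl hydroxylase gene, was at 54.7 and 118 and then at 67.2 and 128, with log2 ratios of 1.11 (1.05 to 1.18) and 0.93 (0.87 to 0.98). *SERPINH1*, for the collagen chaperone HSP47, was at 201 and 366 and then at 153 and 384, with log2 ratios of 0.87 (0.83 to 0.90) and 1.33 (1.30 to 1.37). The D4 ratio of *P4HA1* and the D6 ratio of *PLOD2* were close to the threshold. *P4HA1* passed it at D4 under 4 other ways of processing, at 1.01 to 1.03. In UMIs per cell, *PLOD2* was within 2-fold at D4, at 0.71, and *SERPINH1* at D6, at 0.99. None of the 3 differed between the gates by as much as *COL4A1*, their common client.

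From D4 to D6, the summed level was 1.16-fold higher in the hypoblast gate, a log2 ratio of 0.21 (0.20 to 0.22), and 1.10-fold lower in the embryonic gate, at −0.13 (−0.15 to −0.12). With 1 library per day, the day cannot be told apart from the culture, the dissociation and the library. Most genes stayed within 2-fold. In the hypoblast gate, 2 of 31 genes (6.45%) were higher at D6, beside 5.21% of 17463 genes, and 3 (9.68%) were lower, beside 4.42%. In the embryonic gate, 2 of 34 (5.88%) were higher, beside 3.67% of 18746 genes, and none was lower, beside 1.32%. These counts are too small to set apart from the background, and all 7 calls were on genes at no more than 2.74 CPM in the gate concerned.

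The higher genes in the hypoblast gate were *LAMA3* and *TINAGL1*, with log2 ratios of 1.42 (−0.05 to 3.08) and 1.62 (0.89 to 2.40). The *LAMA3* call rests on 6 and 14 UMIs at D4 and D6 and on an interval that includes 0. Lower there were *COL4A3* at −1.20 (−2.35 to −0.16), a call lost under 2 alternatives at −0.87 and −0.67, *COL4A4* at −1.98 (−2.61 to −1.39) and *LAMA4* at −1.86 (−3.29 to −0.63). The higher ones in the embryonic gate were *LAMB3* at 1.63 (0.48 to 2.96) and *SMOC2* at 1.49 (0.32 to 2.83), while *NID2* missed the threshold at 0.98 (0.61 to 1.38).

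The abundant genes, all within 2-fold between the days, did not move as a block. Within collagen IV, the pair on chromosome 13 was higher in the hypoblast gate at D6, with log2 ratios of 0.32 (0.30 to 0.35) for *COL4A1* and 0.13 (0.09 to 0.16) for *COL4A2*. The pair on the X chromosome was lower, at −0.41 (−0.47 to −0.34) for *COL4A5* and −0.62 (−0.67 to −0.57) for *COL4A6*. In the embryonic gate the order was the other way round, at −0.32 (−0.39 to −0.25) and −0.33 (−0.41 to −0.26) for *COL4A1* and *COL4A2*, and at 0.14 (0.02 to 0.25) and 0.15 (0.01 to 0.29) for *COL4A5* and *COL4A6*. The genes of a pair thus had ratios of the same sign, and the pairs had opposite signs. In the embryonic gate, the intervals of *COL4A5* and *COL4A6* included 0.08, the median ratio of all tested genes, so their sign there depends on the scaling. The balance within both pairs also differed between the days in the hypoblast gate, by more than the intervals of the chain ratios given above.

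In the hypoblast gate, *P4HA1*, *FREM2*, *HSPG2* and *LAMB1* came nearest to a 2-fold higher level at D6, with log2 ratios of 0.94 (0.90 to 0.98), 0.89 (0.77 to 1.01), 0.88 (0.78 to 0.97) and 0.86 (0.79 to 0.93). *LAMA1*, at −0.08 (−0.14 to −0.02), and *LAMC1*, at 0.07 (−0.04 to 0.19), did not accompany *LAMB1*. *COL18A1* was at 0.50 (0.47 to 0.53) in the hypoblast and −0.40 (−0.46 to −0.34) in the embryonic gate, and *SERPINH1* at 0.07 (0.04 to 0.10) and −0.40 (−0.43 to −0.36). *SPARC* was lower in both gates, at −0.43 (−0.48 to −0.37) and −0.61 (−0.67 to −0.55). The remaining genes at 50 CPM or more had hypoblast gate ratios of −0.10 for *PXDN*, 0.11 for *PLOD2*, 0.24 for *AGRN* and 0.39 for *FRAS1*. Below that level, *LOXL2* was lower at D6, at −0.79 (−0.97 to −0.62), and so was *LAMC3*, at −0.88 (−1.17 to −0.60), while *FREM2*, given above, was higher.

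The 4 streak and mesoderm markers, at 33.3 CPM in the D4 and 104 in the D6 hypoblast gate, differed between the days as well. Leaving out the cells that held such markers kept 3168 of the 4061 hypoblast gate cells at D4 and 2115 of 3567 at D6. The summed D6 over D4 log2 ratio was then 0.25, and *P4HA1* passed 2-fold at 1.06. The amnion markers had D6 over D4 log2 ratios of −1.92 (−2.11 to −1.74) in the hypoblast and 1.24 (1.10 to 1.39) in the embryonic gate, and their part in the results was not tested.

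**Figure D5:**
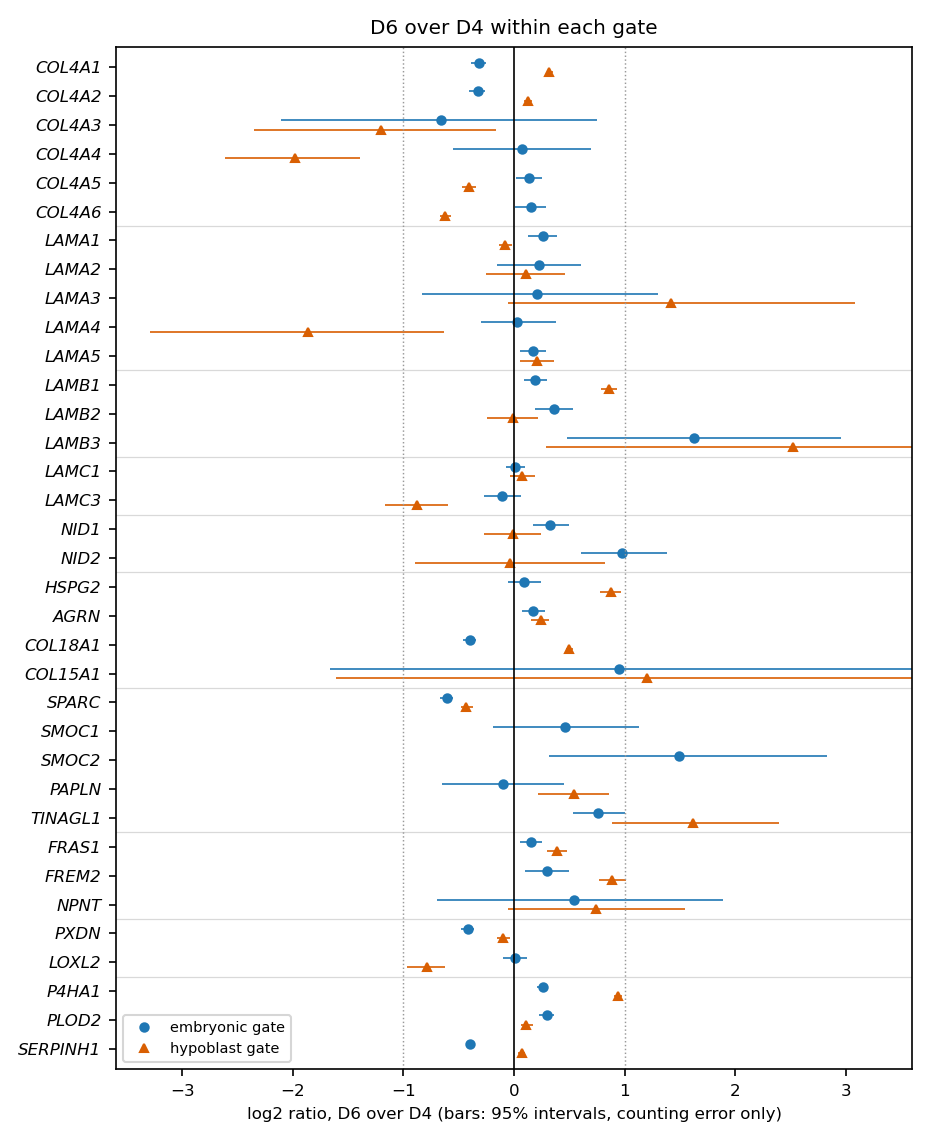
Log2 ratio of D6 over D4 for each gene in the embryonic (dots) and hypoblast (triangles) gates, genes under 20 UMIs included, with 95% counting intervals clipped at the axis limits and dotted lines at −1 and 1; ratios with a day at 0 UMIs (*SMOC1* and *SMOC2* in the hypoblast gate) are not drawn. Most points lie between the dotted lines, with *COL4A1* and *COL4A6* on opposite sides of 0 in the hypoblast gate.

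Smaller sets of cells were also set apart by counts of 1 or 2 genes that are no member of the list, and they are named by those counts and not as types. Hypoblast gate cells with at least 5 UMIs of *CER1*, a secreted inhibitor known from the anterior hypoblast, numbered 336 at D4 and 59 at D6. Their summed level was 2414 CPM at D4 and 2485 at D6, beside 2675 and 3098 in hypoblast gate cells without a *CER1* UMI. Most of the 35 genes stood close in both sets of cells. *FREM2* was lower with *CER1*, with log2 ratios of −1.15 (−1.63 to −0.71) at D4 and −1.45 (−2.36 to −0.67) at D6, and *SPARC* was at 0.45 (0.34 to 0.57) and 0.44 (0.18 to 0.70). *COL4A4* was higher with *CER1* at D4, at 8.47 CPM against 1.62, a log2 ratio of 2.39 (1.76 to 3.00) from 38 and 58 UMIs. At D6 *COL4A4* had 1 UMI in the *CER1* cells, and *COL4A6* was lower there, at 56.5 against 125 CPM.

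Embryonic gate cells with at least 10 UMIs of *TAGLN*, an actin-binding protein gene, numbered 363 at D4 and 96 at D6, and those with at most 2 numbered 2549 and 4770. The sum was higher with *TAGLN* by a log2 ratio of 0.28 (0.24 to 0.31) at D4 and 0.41 (0.34 to 0.48) at D6. *SPARC* had log2 ratios of 0.82 (0.71 to 0.92) and 0.90 (0.68 to 1.12), and *COL4A1* of 0.36 (0.20 to 0.51) and 0.74 (0.46 to 1.01), all within 2-fold. Cells with at least 2 UMIs of *TFAP2A*, a gene of amnion and surface ectoderm, and at most 2 of *FN1* were taken from all kept cells and numbered 83 at D4 and 382 at D6, of which 81 and 350 were also in the embryonic gates, and their sums were 922 and 791 CPM, beside 933 and 850.2 in the embryonic gates.

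Cells with at least 3 UMIs of *HAND1*, a gene of extra-embryonic and lateral mesoderm, and none of *SOX2* were likewise taken from all kept cells and numbered 5 at D4 and 87 at D6, of which 3 and 36 were also in the hypoblast gates. At D6 their summed level was 1550.4 CPM (1481 to 1622), between those of the gates, and so was *COL4A1* at 109 (90.8 to 129). *SPARC* lay above either gate of that day, at 201 (176 to 227) CPM, and so did *NID2*, at 7.40 (3.38 to 14.0) from 9 UMIs, and *LAMC1* at 41.1 (30.5 to 54.2), whose interval included the embryonic level. *LOXL2*, *NID1*, *LAMC3* and *LAMB2* were above both gates too, at 27.9, 12.3, 11.5 and 12.3, with intervals that included the embryonic level. *NPNT* and *SMOC2* were above both from 2 and 1 UMIs.

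Other genes of the pathway were taken from lists of known components, likewise chosen with earlier results of these data known. Their counts stand beside the shares of all tested genes given above, which were 14.1% higher and 15.1% lower at D4, and 14.1% higher and 20.7% lower at D6. Of 17 other genes for collagen processing and secretion, none passed 2-fold between the gates on either day, with medians of 0.24 at D4 and −0.08 at D6. The D6 log2 ratios of 4 of them were 0.86 for *PPIB* and 0.85 for *P4HB*, a prolyl isomerase and the β subunit of prolyl 4-hydroxylase, −0.73 for *CRTAP*, of the prolyl 3-hydroxylase complex, and 0.67 for *P4HA2*, a second catalytic subunit. Of 5 other cross-linking enzymes, 3 were higher and 2 lower at D4, and 1 was higher and 3 lower at D6.

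Of 17 receptors for basement membrane, 3 were higher and 6 lower in the hypoblast gate at D4, beside 14.1% and 15.1% of all genes, and 5 and 5 at D6, beside 14.1% and 20.7%. *ITGA5*, the α subunit of the fibronectin receptor, was higher, at 8.67 and 67.6 CPM at D4 and at 6.24 and 51.4 at D6, and its ligand gene *FN1* had set the gates. *ITGA6*, a laminin receptor subunit, was lower, at 76.0 and 33.5 and then at 90.2 and 25.2. *DAG1*, for dystroglycan, which binds laminin α chains, agrin and perlecan, had log2 ratios of 0.78 and 1.06.

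Of 13 other basement membrane proteins, 8 were higher and 1 lower at D4, beside 14.1% and 15.1% of all genes, and 7 and 4 at D6, beside 14.1% and 20.7%. *FBLN2* and *FBLN1*, for fibulins that bind laminin and nidogen, had log2 ratios of 4.03 and 1.15 at D4 and of 4.30 and 1.79 at D6. Of 12 fibrillar and other interstitial collagens, 4 were higher and 1 lower at D4, and of the 10 that could be compared at D6, 3 were higher and 5 lower. From D4 to D6, 9 of these 12 were lower in the hypoblast gate, beside the background of 4.42%, with a median log2 ratio of −1.23. Among them, the level of *COL5A2* went from 79.4 to 37.2 CPM and that of *COL6A1* from 90.1 to 42.8. *COL6A2*, of the same list, went from 93.4 to 69.0 and stayed within 2-fold, at a log2 ratio of −0.44. In the embryonic gate, *COL5A2* and *COL6A1* were lower at D6 as well, from 19.9 to 6.96 and from 76.6 to 44.7, and *COL6A2* from 55.2 to 38.0. There, 2 of 11 of these collagens were at least 2-fold lower, beside 1.32% of all genes. The D6 over D4 log2 ratio in the hypoblast gate was 0.32 for *COL4A1*, 0.13 for *COL4A2* and 0.50 for *COL18A1*. It was −0.41 for *COL4A5* and −0.62 for *COL4A6*. The fibroblast markers include *COL1A1*, *COL1A2* and *COL3A1*, which are also interstitial collagens. Their sum was lower in the hypoblast gate at D6 too, by a log2 ratio of −1.42 (−1.53 to −1.30). Of the 6 markers with enough UMIs, 5 were lower and *LUM* was higher, at 2.44. The part of the fibroblast markers in the result was not tested.

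Of 22 matrix proteases and inhibitors, 8 were higher and 8 lower in the hypoblast gate at D4, beside 14.1% and 15.1% of all genes, and 8 and 7 at D6, beside 14.1% and 20.7%. *SERPINE2*, an inhibitor of serine proteases, was at 646 CPM in the D4 and 1632 in the D6 hypoblast gate, with log2 ratios of 2.53 and 4.72 over the embryonic gate. The membrane protease *MMP15* had log2 ratios of 2.11 and 2.77, the lysosomal protease *CTSL* of 1.92 and 1.75, and the inhibitor *TIMP1* of 0.79 and 0.62.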

How the data were processed

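The authors deposited, for each day's library, unnormalized UMI counts of 36601 genes in the cells that Cell Ranger 6.0.1 had called on hg38, and the labels' processing notes name Seurat 4.0.1 and R 4.0.3. The 7 bisulfite samples were not analysed here. The genes and lists were chosen with earlier results of these data known. From the deposited counts, cells were filtered as in the study's methods and placed in 2 gates, counts were summed per gate and divided by all UMIs of the gate (CPM, per 1000000), and ratios were given exact conditional binomial intervals, levels exact Poisson intervals and shares exact binomial intervals. Genes at 50 CPM or more in a gate were described in full, and of each pathway list at most 4 such genes with large ratios were named. No doublet caller was run. Each gate required that genes of the other lineage were low or absent, and a limit of 20000 UMIs was an alternative. *FN1* sets the gates, so ratios of genes that covary with it within a compartment depend on this choice. Of 15 alternatives, UMIs per cell and leaving out barcodes of both libraries were chosen after seeing the data. The ratio and call computations were tested on simulated Poisson gene totals with planted changes well past 2-fold. Summing over cells and calls near the threshold were not tested in this way. Thinning drew UMIs without replacement with a fixed seed. Computations used Python 3.11.15, numpy 2.4.6, scipy 1.17.1, pandas 2.3.3 and matplotlib 3.10.9. Sequences and positions are from RefSeq on GRCh38.p14.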

Additional observations from a re-analysis of the deposited data

Results flagged for a closer look

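In several genes and groups, the 2 gates had D6 over D4 log2 ratios of opposite sign with intervals away from 0. The difference between the gates was not tested, since each day is 1 library. The ratio was 0.07 in the hypoblast and −0.20 in the embryonic gate for the collagen IV chains together, 0.50 and −0.21 for the proteoglycans with collagens XV and XVIII, and 0.35 and −0.08 for intracellular collagen processing. Of single genes, it was 0.32 and −0.32 for *COL4A1*, 0.13 and −0.33 for *COL4A2*, 0.50 and −0.40 for *COL18A1*, and 0.07 and −0.40 for *SERPINH1*. The sign was the other way round for *COL4A5* at −0.41 and 0.14, *COL4A6* at −0.62 and 0.15, and *LAMA1* at −0.08 and 0.26. The median ratio of all tested genes in the embryonic gate was 0.08. The embryonic intervals of *COL4A5* and *COL4A6* included that value, so their sign there depends on the scaling.

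Cells outside the comparisons also held UMIs of the 35 genes. In kept cells of neither gate, the sum was 1756 CPM at D4 and 1746 at D6, between the values of the gates. In cells that the filters removed, it was 1558 at D4 and 1823 at D6.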

How the results depend on the processing

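No paired analysis was possible because each day is 1 library. No ratio past 2-fold changed direction under any alternative that could be computed, and ratios against a gate at 0 UMIs have none. The D4 summed log2 ratio between the gates (1.51 as reported) was 1.55 with the median of all genes set to 0. It was also 1.55 in cells with 10000 to 16000 UMIs, and 1.52 with at most 5% mitochondrial UMIs. It was 1.49 with *APOA1* in the gates, 1.61 with stricter gates and 1.10 in UMIs per cell. With the 1277 D4 embryonic cells for which the authors' labels were at hand, it was 1.57. At D6 (1.85) it was 2.01 (median), 1.90 (10000 to 16000 UMIs), 1.87 (limit of 20000 UMIs), 1.83 (*APOA1*), 1.90 (stricter), 1.88 (no mesoderm marker cells) and 1.51 (per cell). For D6 over D4, the hypoblast value (0.21) was 0.22 in thinned cells, 0.24 at 10000 to 16000 UMIs, 0.19 (*APOA1*), 0.18 (stricter) and 0.25 (no mesoderm marker cells), and the embryonic value (−0.13) was −0.22 (median), −0.12 (10000 to 16000 UMIs) and −0.21 (per cell). The 4 genes lower at D4 were 2 at 10000 to 16000 UMIs, where *NID2* was at −0.90. Of D6 over D4 counts in the hypoblast gate, the 2 higher genes were 1 in thinned cells, with at most 5% mitochondrial UMIs, with the limit of 20000 and in stricter gates, 5 with no filter on UMIs and 0 with at least 100 UMIs, and the 3 lower genes were 1 in thinned cells, in stricter gates and with at least 100 UMIs. The 2 higher in the embryonic gate were 0 in thinned cells and with at least 100 UMIs. *LAMA4* at D4 was −0.88 as a mean over cells, and *NID2* passed 2-fold from D4 to D6 in the embryonic gate at 1.01 to 1.40 under 4 alternatives. Over all 4 comparisons, 42 calls of single genes held in UMIs per cell, 8 no longer passed 2-fold and 3 others did. Under each of the other alternatives, at most 2 calls no longer passed and at most 4 others did, but some could no longer be tested. With no filter on UMIs, genes that were not tested as reported also passed 2-fold, and they are not in these counts. Of 50 calls, 12 had no value in thinned cells, 13 with at least 100 UMIs, 7 at 10000 to 16000 UMIs and 8 in stricter gates, since too few UMIs were left, and at most 2 under the others, except that the authors' labels apply to D4 embryonic cells alone. The cause was not tested. Depth limits the 7 genes under 1 CPM in every gate.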
